A study of Nematostella vectensis with 123 samples.

Results

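Among 40499 transcript models of the starlet sea anemone Nematostella vectensis, a cnidarian, 186 had a median close to 0 over the first 6 h. Single embryos could lie above it. By median the 186 models were present at 6 to 12 h and still present at 30 to 36 h. They were chosen on measured values: a median of at most 2 CPM (counts scaled to the same library total) at 0 to 6 h, a median of at least 10 CPM at 6 to 12 h, and a median at 30 to 36 h of at least 50% of the one at 6 to 12 h. The choice would have stopped at the 200 models with the highest 6 to 12 h median, a limit that was not reached. A further 50 models met the conditions at 0 to 6 h and 6 to 12 h and failed the one at 30 to 36 h, and these serve as the set that was not sustained. Because the 3 medians chose the 186 models, their values at 0 to 12 h and at 30 to 36 h are a description and were not tested.

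In most animals the first divisions of the embryo run on RNA that the mother stored in the egg. That stock is later degraded while the nuclei of the embryo begin transcription, a handover called the maternal-to-zygotic transition. RNAs made by the embryo itself range from short-lived transcripts of early regulators to transcripts that stay on through gastrulation and the planula, the swimming larva of cnidarians.

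The series holds 123 single embryos, 1 library each, with no genetic or chemical treatment in any of them. Per the labels' protocols, fertilized embryos were picked at the 4-cell stage, kept at 20 °C and frozen singly at set times, and their RNA was read with CEL-Seq, which barcodes each embryo and counts the 3′ ends of polyadenylated RNA. The labels give 1 time per embryo without a unit, read here as minutes. Time bins used here for embryos 1 to 73 held 10 embryos at 0 to 6 h (with embryo 50, labelled -20), 9 at 6 to 12 h, 8 at 12 to 18 h, 8 at 18 to 24 h and 9 in each bin of 6 h from 24 to 48 h; embryos 74 to 123, whose label times run in the opposite order of embryo number and reach 72 h, gave 12 embryos at 39 to 48 h, 18 at 48 to 60 h and 19 at 60 to 72 h. Embryos 10 and 111 fell under the minimum of 50000 counts and embryo 27 was left out by the rule. Each bin spans several ages, so its spread includes the trend over time. The labels name no clutch or culture, and p-values therefore cover only the spread among these single embryos.

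The 120 embryos used had 58680 to 2646585 counts on models (median 835502). At median depth a count of 0 allows a level of up to 3.59 CPM (3 counts), a limit for counting error only. No model identifier was found among the 38762 genes of the RefSeq table (jaNemVect1.1), so neither a gene name, a role nor a sequence can be given for any of the 186 models, and identifiers are printed for a few. Counts are not per length, so levels are compared between embryos and not between models. An embryo is a bulk sample, in which fewer cells with a transcript and less RNA per cell cannot be told apart. Because CEL-Seq primes on poly(A) tails, new transcription and a longer tail on stored RNA cannot be told apart either.

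Counts of the models were scarce in the earliest embryos, but few models had none over all of them. Over the 10 embryos of 0 to 6 h they held 3878 of 9518968 counts. Pooled over these embryos the median model had 1.94 CPM and the highest 9.35 CPM. Only 3 models had no count at all, Nv.T1.10146.1, Nv.T1.25729.1 and Nv.T1.44052.1 (singled out after their values were seen), which allows a pooled level of up to 0.315 CPM. In 118 models counts were found in at least 5 of the 10 embryos, while 68 had a median of 0. Most of the 186 thus had low counts rather than none before 6 h. Where these low counts came from was not tested. Thinned to 200000 counts per embryo, 27.5 to 70.5 of the 186 models were expected to show a count at 0 to 6 h (median 44.3), against 14223 to 16113 of all models.

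Levels were higher at 6 to 12 h, as the choice required, and in every later bin they were above those of 6 to 12 h. The median over the 186 models of the bin median was 0.56 CPM at 0 to 6 h, 15.1 CPM at 6 to 12 h, 41.3 CPM at 12 to 18 h, 46.6 CPM at 18 to 24 h, 46.4 CPM at 24 to 30 h, 39.6 CPM at 30 to 36 h, 36.6 CPM at 36 to 42 h and 39.1 CPM at 42 to 48 h. The typical model was thus at its highest level from 12 to 30 h. In embryos 74 to 123 it was 30.0 CPM at 39 to 48 h, 27.7 CPM at 48 to 60 h and 22.7 CPM at 60 to 72 h. At 12 to 18 h 100 of the 186 models had a bin median more than 2 times that of 6 to 12 h, and 10 had at least 10 times that. The number at 10 times or more was 29 at 18 to 24 h and 39 at 24 to 30 h. Of the 8 bins of embryos 1 to 73, the highest median fell at 6 to 12 h for 13 models, at 12 to 18 h for 51, at 18 to 24 h for 28, at 24 to 30 h for 18, at 30 to 36 h for 13, at 36 to 42 h for 23 and at 42 to 48 h for 40. The highest median thus fell most often at 12 to 18 h and at 42 to 48 h. From 12 to 48 h the median over the models changed little, from 36.6 to 46.6 CPM. Where the bin medians of a model differ little, its highest bin is uncertain. The same count over all models was not made, so these numbers do not set apart groups of models.

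**Figure D1:**
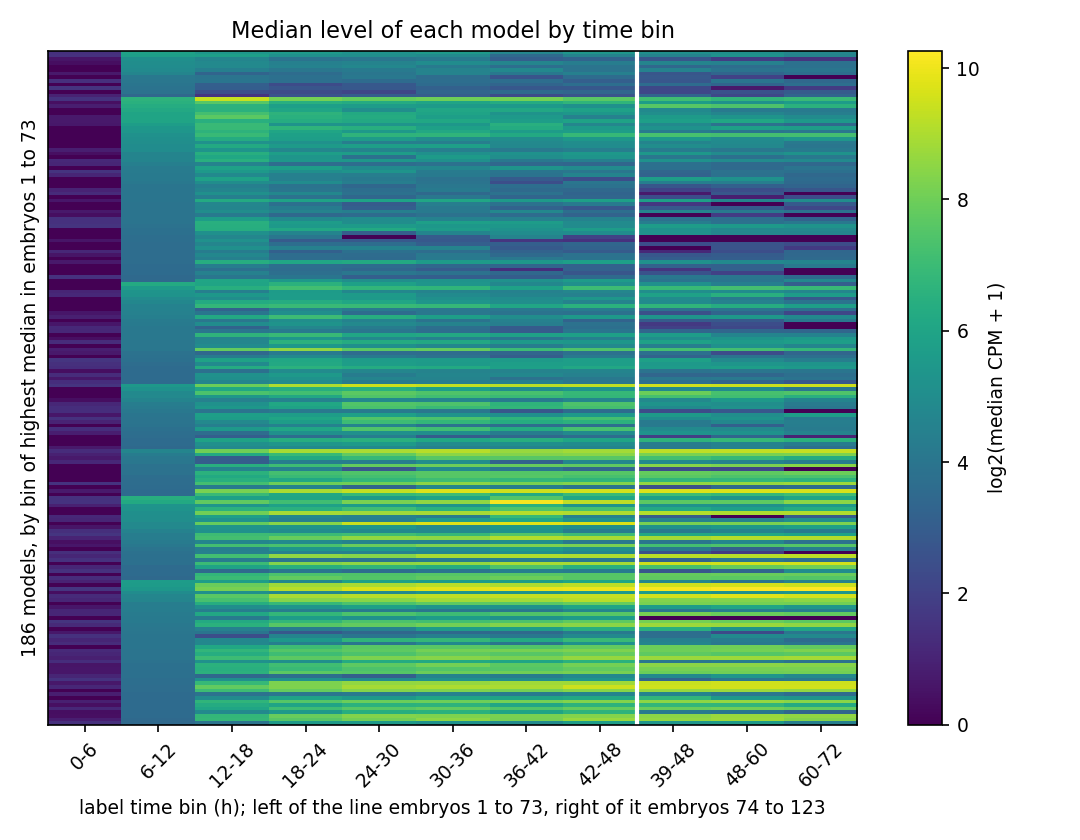
Heat map of the bin median of each of the 186 models as log2(CPM + 1), with 1 row per model, sorted by the bin in which embryos 1 to 73 were highest, and 1 column per time bin. Left of the white line are the 8 bins of embryos 1 to 73 and right of it the 3 bins of embryos 74 to 123; rows are dark at 0 to 6 h by choice, and 5, 5 and 13 rows reach a median of 0 in the last 3 columns.

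Summed over the 186 models, the level per embryo ran from 254 to 702 CPM at 0 to 6 h (median 356 CPM) and from 1443 to 14833 CPM at 6 to 12 h (median 4354 CPM). It ran from 9089 to 17087 CPM at 12 to 18 h (median 13758 CPM), from 15346 to 19111 CPM at 18 to 24 h (median 17474 CPM) and from 17891 to 23883 CPM at 24 to 30 h (median 19639.8 CPM). No embryo from 12 h on came near the level of the first 6 h. The later medians were 23278 CPM at 30 to 36 h, 22773.5 CPM at 36 to 42 h and 21728 CPM at 42 to 48 h. Embryos 74 to 123 had 23051 CPM at 39 to 48 h, 22970.5 CPM at 48 to 60 h and 22075 CPM at 60 to 72 h. From 30 h on the bin medians of the sum lay between 21728 and 23278 CPM, while the level of the median model was highest at 18 to 24 h. The 10 models with the highest bin medians held 22.9% of the summed medians at 12 to 18 h, 29.2% at 24 to 30 h and 36.7% at 60 to 72 h of embryos 74 to 123. Embryo 56, at 36 h, had the lowest sum after 18 h, 12529.6 CPM at 420525 counts.

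The 50 models that were not sustained had sums of 41.7 to 428 CPM at 0 to 6 h (median 91.3 CPM) and 1121 to 4988 CPM at 6 to 12 h (median 3112 CPM). Their medians were 2054 CPM at 12 to 18 h and 699.9 CPM at 18 to 24 h. From 24 h to 72 h their bin medians lay between 441 and 609 CPM, so the sum stayed above its level of the first 6 h. The median over the 50 models of the bin median was 0 at 0 to 6 h. It was 25.5 CPM at 6 to 12 h and 4.92 CPM at 42 to 48 h. In embryos 74 to 123 it was 0.31 CPM at 39 to 48 h and 1.77 CPM at 48 to 60 h. At 60 to 72 h it was 0. The typical model of the set was thus back near its early level in those embryos, unlike the sum.

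**Figure D2:**
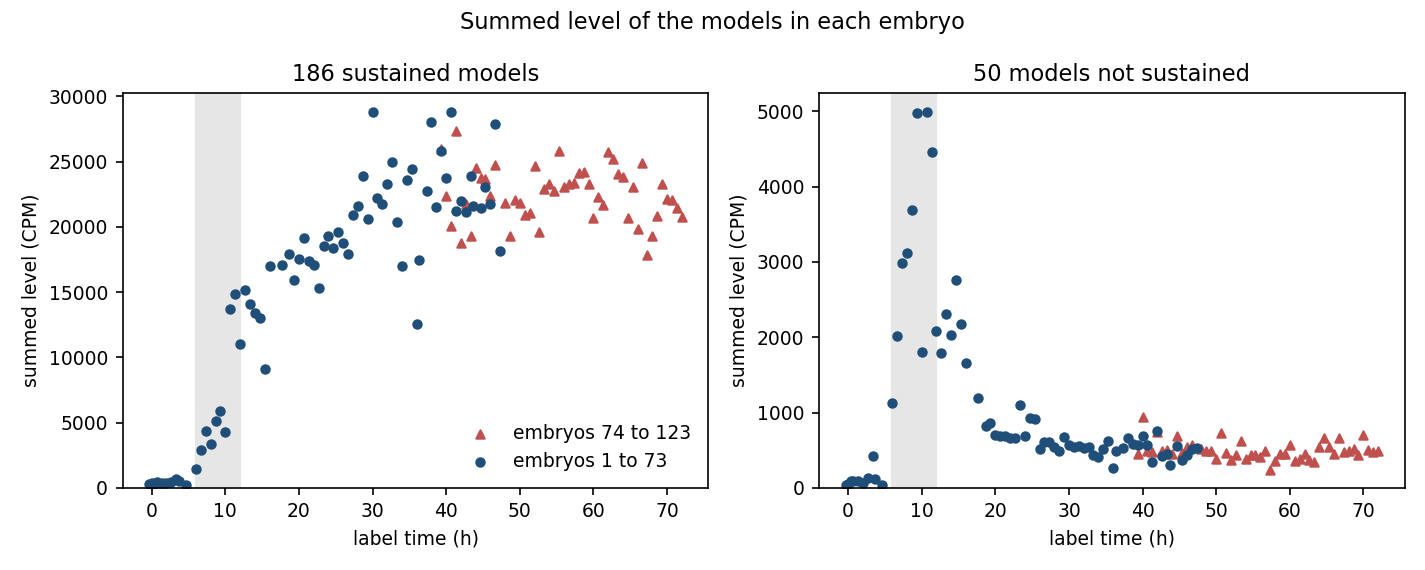
Summed level of the 186 sustained models (left) and of the 50 models that were not sustained (right) in each embryo, in CPM, against label time in hours, with 1 point per embryo and the 6 to 12 h bin shaded. From 640 min on the sustained models lie between 9089 and 28793 CPM, whereas the other set is highest at 6 to 12 h and has a median of 699.9 CPM at 18 to 24 h.

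Within 6 to 12 h the sum changed from embryo to embryo. It was 1443 CPM at 360 min, 2880.3 CPM at 400 min, 4354 CPM at 440 min, 3382 CPM at 480 min, 5129 CPM at 520 min, 5894 CPM at 560 min and 4289.97 CPM at 600 min. The next embryos had 13713 CPM at 640 min and 14833 CPM at 680 min. The last 2 of the 9 embryos thus stood apart from the 7 before them, with a ratio of means of 3.65. In 93 of the 186 models both of these embryos were higher than all 7 before, against 14.0% of the 12181 models with a mean of at least 10 CPM at 6 to 12 h; the rule used these libraries, so the share is given as a description. The mean was higher in the later 2 embryos for 167 of the 186 models, and the 10 models with the largest gain held 26.3% of it. Embryos 17 (600 min) and 18 (640 min), on either side of the step, had 206062 and 269450 counts, the fewest of the bin. Counts on models per spike-in count were 1.62 in embryo 17 and 3.24 in embryo 18; the part of depth and of capture in the step was not tested. The same step was seen in 10 of the 50 models that were not sustained.

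Onset was set for each model at the first label time at which that embryo and the next both reached 50% of the model's 6 to 12 h median. By this definition the median onset was 7.33 h, with quartiles at 6.67 and 8.67 h. Onsets fell at 6 h for 15 models, at 6.67 h for 42, at 7.33 h for 25, at 8 h for 31 and at 8.67 h for 44. For 18 models the onset lay before 6 h and for 11 it lay at 9.33 h or later, the last at 10.7 h. Because the threshold is tied to the 6 to 12 h median, the definition itself keeps onsets near that bin. Thinned to 200000 counts, 100.4 of the 186 models were expected with a count at 360 min, 128 at 400 min and 154 at 440 min. It was 174 at 520 min and 181 at 680 min, with a dip to 118 at 600 min. At this equal depth the embryo of 600 min was also the lowest of the bin over all models, with 12849 against a bin median of 15394. The cause of the dip was not tested.

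**Figure D3:**
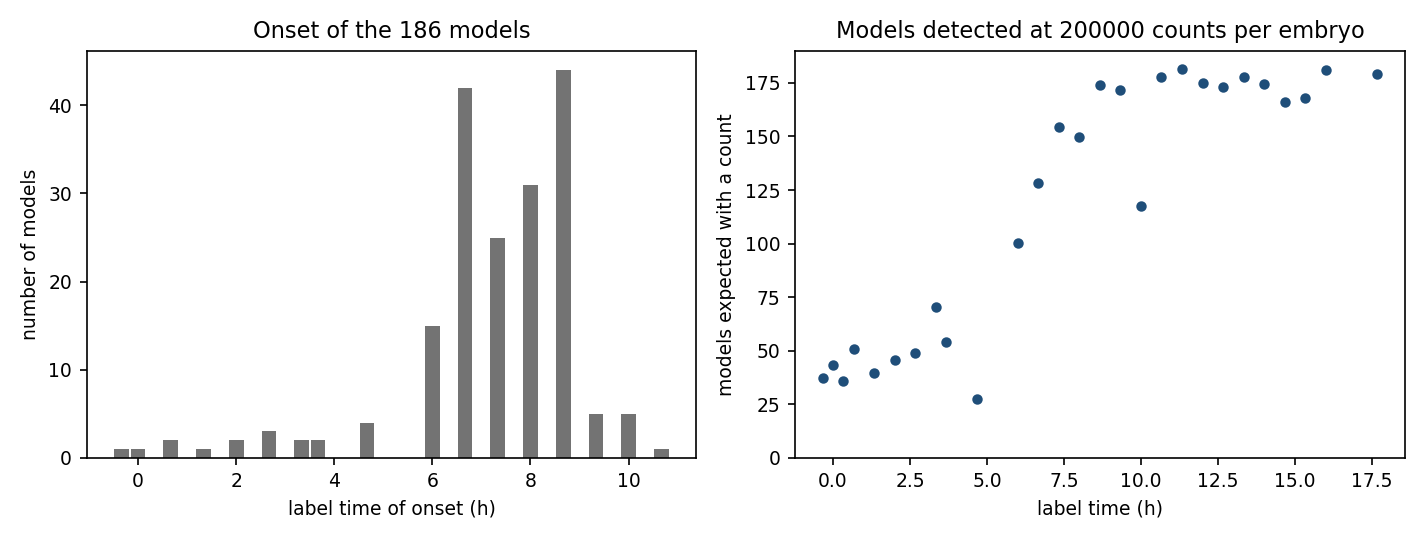
Left, number of the 186 models by label time of onset in hours. Right, number of the models expected with a count when each embryo of the first 18 h is thinned to 200000 counts, with 1 point per embryo; the points lie between 27.5 and 70.5 before 6 h and between 166 and 181 from 12 to 18 h.

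The models with the earliest and latest onset show how the definition works on low counts. Nv.T1.47187.1 had an onset at the label -20, from 15.7 CPM in embryo 50 and 12.9 CPM in embryo 1. It was at 0 in all 6 embryos from 160 to 400 min and reached 10.3 CPM at 520 min, so the earliest embryos and the later ones are separated by a gap. Nv.T1.18327.1, the next earliest, had 6.09 CPM at 0 min and 14.0 CPM at 20 min, was at 0 from 40 to 160 min, and stood between 66.3 and 102 CPM at 18 to 24 h. At the other end, Nv.T1.30862.1 had an onset at 640 min. It ran from 0 to 40.8 CPM at 6 to 12 h (median 16.2 CPM), from 29.6 to 156 CPM at 18 to 24 h (median 75.1 CPM) and from 54.0 to 693 CPM at 30 to 36 h (median 195 CPM). Nv.T1.27360.1 had an onset at 600 min although it was already at 37.5 CPM at 400 min and 57.5 CPM at 520 min, because the embryos next to these, at 440 and 560 min, had 16.3 CPM and 0. Single embryos at or near 0 therefore set the onset of such models.

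The 2 models with the highest median at 6 to 12 h were Nv.T1.32033.1 and Nv.T1.4587.1. Nv.T1.32033.1 ran from 0 to 8.41 CPM at 0 to 6 h (median 1.84 CPM) and from 11.4 to 892 CPM at 6 to 12 h (median 98.2 CPM), with 11.4 CPM at 360 min, 69.1 CPM at 400 min, 266.9 CPM at 600 min and 892 CPM at 680 min. Embryos of 12 to 18 h had 446 to 1067 CPM (median 682 CPM), its highest bin, and the bins from 18 to 48 h had medians between 196 and 277 CPM. In embryos 74 to 123 the medians lay between 108 and 137 CPM. Nv.T1.4587.1 ran from 0 to 12.1 CPM at 0 to 6 h (median 0.34 CPM), from 15.8 to 375 CPM at 6 to 12 h (median 91.5 CPM) and from 49.8 to 315 CPM at 12 to 18 h (median 194 CPM). Its later medians were 63.6 to 104 CPM in embryos 1 to 73 and 36.2 to 51.6 CPM in embryos 74 to 123. By bin median both models were thus highest at 12 to 18 h and lower, but present, afterwards. In the test described below, the fall of Nv.T1.4587.1 from 12 to 18 h to 18 to 24 h was not called (log2 fold change -0.94, adjusted p = 0.056 by edgeR).

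**Figure D4:**
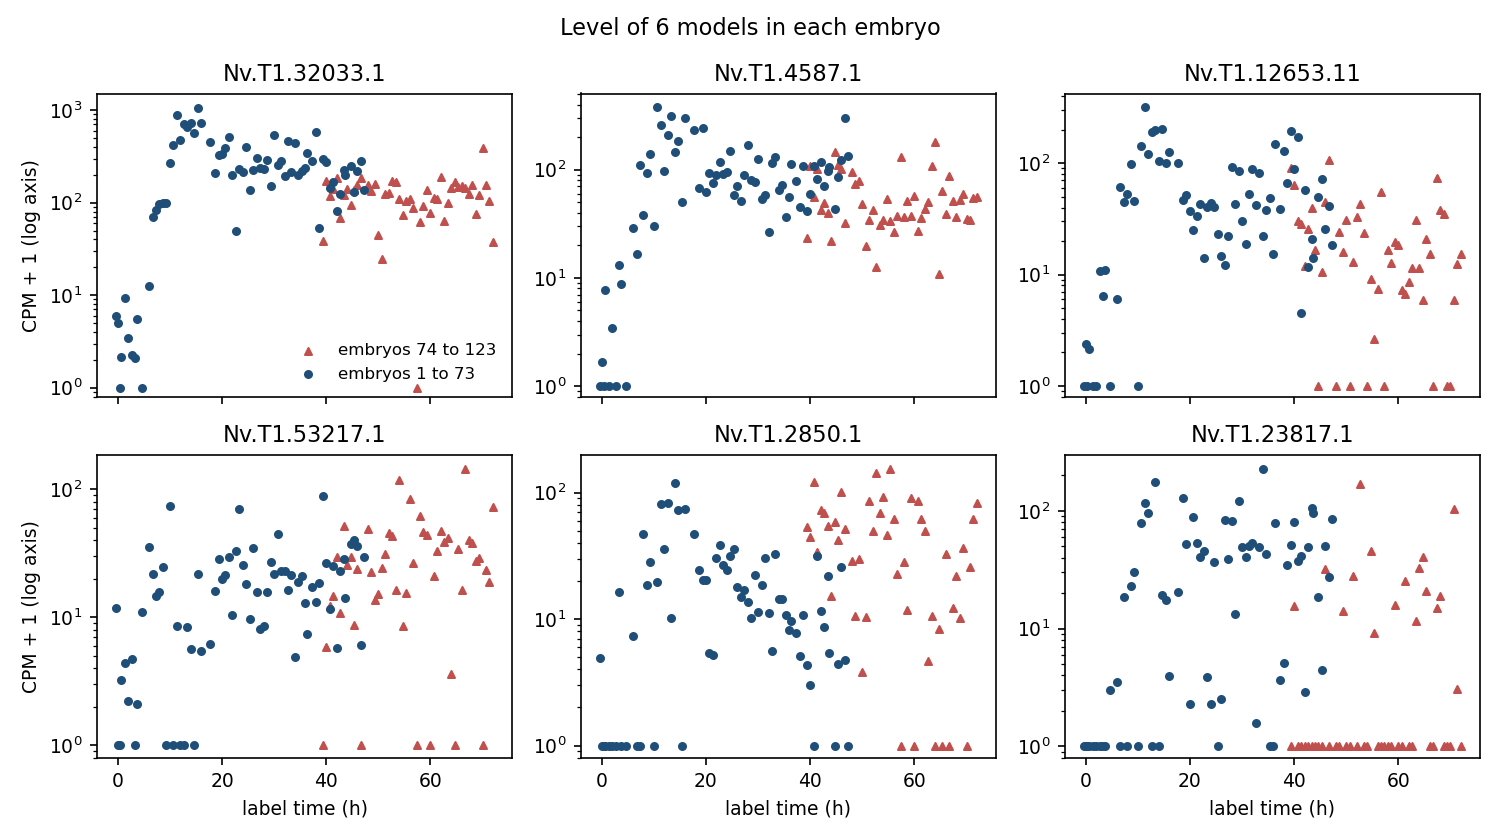
Level of 6 of the 186 models in each embryo as CPM + 1 on a log axis against label time in hours, 1 point per embryo, with triangles for embryos 74 to 123 and circles for embryos 1 to 73. Nv.T1.32033.1, Nv.T1.4587.1 and Nv.T1.12653.11 are highest between 10 and 18 h, Nv.T1.53217.1 is low at 12 to 18 h, and Nv.T1.2850.1 and Nv.T1.23817.1 differ between the embryo numbers at equal label time.

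How far the 50% condition held in bins that the rule did not use was counted for the 186 models beside all 10908 models with a 6 to 12 h median of at least 10 CPM. At 12 to 18 h 179 of the 186 had a bin median of at least 50% of that at 6 to 12 h, against 70.6% of the 10908. It was 180 at 18 to 24 h against 64.8%, 178 at 24 to 30 h against 62.7%, 170 at 36 to 42 h against 56.8%, and 170 at 42 to 48 h against 59.9%. Embryos 74 to 123 had 149 of the 186 at 39 to 48 h against 54.1%, 147 at 48 to 60 h against 52.1%, and 144 at 60 to 72 h against 48.8%. Among the 50 models that were not sustained it was 26 at 12 to 18 h, 16 at 18 to 24 h, 9 at 42 to 48 h, and 5 or 6 in the bins of embryos 74 to 123. The rule asked for a low start and for presence at 30 to 36 h, which the 10908 did not have to meet, so the higher shares are not independent of the choice. A set of 28 models was under 50% in all 3 bins of embryos 74 to 123. The same count over the 10908 models was not made.

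Changes after 12 h were tested between bins that the rule did not use, over all models that passed the filter on low counts. Calls needed a log2 fold change of 1 or more in either direction and a p under 0.05 after Benjamini-Hochberg adjustment (edgeR quasi-likelihood test). Models that rose or fell did so in the later bin relative to the earlier. The comparison of 24 to 30 h shares its 18 to 24 h embryos with the comparison of 18 to 24 h, and that of 36 to 48 h shares the 24 to 30 h embryos with it. Over the 4 comparisons between times, 164 of the 186 models were called in none. Of the 151 models tested in all 4, 133 were called in none, against 82.1% of the 9289 models tested in all 4. A call that was not made does not show that a level stayed the same. An approximate 95% interval lay wholly within a log2 fold change of 1 either way for 41 of 181 models between 18 to 24 h and 12 to 18 h, 106 of 180 between 24 to 30 h and 18 to 24 h, 100 of 182 between 36 to 48 h and 24 to 30 h, and 72 of 153 between 60 to 72 h and 39 to 48 h.

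Between 18 to 24 h and 12 to 18 h (8 embryos each) 8 of the 181 models tested rose and 7 fell, against 6.55% of the 11217 models tested that rose and 7.27% that fell. The median log2 fold change was 0.09 over the 181 and -0.03 over all tested, and 154 of the 181 lay within 1 either way. The split between directions depended on the scaling: with library factors from the spike-ins, synthetic RNAs whose amount per embryo is not given in the sources used here, 45 of the 181 rose and 1 fell, against 20.3% of all models tested that rose and 1.39% that fell, and the median log2 fold change was 0.70 over the 181 and 0.58 over all tested. With RLE size factors 10 rose and 5 fell, against 7.62% and 6.08% of all models tested. Without embryos 28 and 32 it was 16 and 6, of 182 tested, against 7.36% and 7.00% of all models tested. Counts on models per spike-in count had a median of 4.82 at 18 to 24 h, against 3.44 at 12 to 18 h. Leaving out single embryos gave 10 calls (without embryo 23 or embryo 32) to 25 (without embryo 28).

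Nv.T1.53217.1 had 9.36 to 68.4 CPM at 18 to 24 h (median 24.0 CPM), against 0 to 20.8 CPM at 12 to 18 h (median 4.56 CPM). Counts were found in all 8 embryos of 18 to 24 h and in 5 of the 8 of 12 to 18 h, and the groups overlapped. Its log2 fold change was 2.57 (SE 0.63, adjusted p = 0.0084 by edgeR), the highest of the 8 that rose. At 6 to 12 h it had 0 to 72.8 CPM (median 14.8 CPM). Nv.T1.8563.1 rose to 25.2 to 73.0 CPM at 18 to 24 h (median 46.9 CPM), against 0 to 34.9 CPM at 12 to 18 h (median 14.3 CPM; log2 fold change 1.43, SE 0.46, adjusted p = 0.034 by edgeR). That call was lost when any of embryos 20, 23, 31, 32 or 34, or both embryos 28 and 32, were left out (adjusted p up to 0.067 by edgeR).

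Nv.T1.47711.1 fell to 1.43 to 16.2 CPM at 18 to 24 h (median 6.74 CPM), against 4.15 to 58.0 CPM at 12 to 18 h (median 35.9 CPM; log2 fold change -2.09, SE 0.47, adjusted p = 0.0045 by edgeR). From 36 h on its bin medians were at or under 2.03 CPM, and they were 0 in all 3 bins of embryos 74 to 123, although 1 embryo there had 105 CPM. The model had met the condition at 30 to 36 h with a median of 6.15 CPM. The call was lost with spike-in scaling and in a fit over all bins (adjusted p up to 0.071). Nv.T1.12653.11 had 13.1 to 50.4 CPM at 18 to 24 h (median 37.8 CPM), against 99.6 to 203 CPM at 12 to 18 h (median 122 CPM), and the groups did not overlap (log2 fold change -2.05, SE 0.27, adjusted p = 8.6e-05 by edgeR). Its later medians were 39.2 CPM at 24 to 30 h, 41.6 CPM at 30 to 36 h, 87.2 CPM at 36 to 42 h and 24.8 CPM at 42 to 48 h. No change of this model was called between 36 to 48 h and 24 to 30 h. The call held under all 8 alternative settings and without each of the 16 embryos in turn. Nv.T1.32033.1, described above, fell to a mean of 281 ± 141 CPM at 18 to 24 h, against 672 ± 194 CPM at 12 to 18 h (SD, n = 8 each; log2 fold change -1.33, SE 0.33, adjusted p = 0.0084 by edgeR). That call held without each of the 16 embryos in turn and was lost with spike-in scaling (log2 fold change -0.61, adjusted p = 0.238 by edgeR), in 1 fit over all bins and with embryo 27 included.

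Between 24 to 30 h (9 embryos) and 18 to 24 h (8 embryos) none of the 180 models tested was called, against 0.574% of the 13590 models tested that rose and 0.442% that fell. At an unadjusted p under 0.05 there were 44, a count not made over all models. DESeq2 called 3, or 1.67%, against 2.98% of all models tested. RLE size factors or spike-in scaling in edgeR called 1, or 0.556%, against 1.09% and 1.05% of all models tested. The median log2 fold change was 0.11 over the 180 and 0.012 over all tested. Of the 180, 173 lay within a log2 fold change of 1, from -1.34 to 1.10 in all.

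Between 36 to 48 h (18 embryos) and 24 to 30 h (9 embryos) 5 of the 182 models tested rose and 2 fell, against 4.16% of the 13717 models tested that rose and 1.57% that fell. The median log2 fold change was 0.09 over the 182 and 0.0077 over all tested. Spike-in scaling called none of the 182, against 1.17% of all models tested. It gave 19 of the 182 at an unadjusted p under 0.05, a count not made over all models. DESeq2 called 11, or 6.04%, against 7.76% of all models tested, and leaving out embryo 40 left 3 in edgeR.

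Nv.T1.29048.1 had 0 to 64.1 CPM at 36 to 48 h (median 10.4 CPM), against 0 to 18.0 CPM at 24 to 30 h (median 0). The rise was uneven, since it had 0 to 64.1 CPM at 36 to 42 h and 0 to 19.2 CPM at 42 to 48 h, and the groups overlapped (log2 fold change 2.92, SE 0.92, adjusted p = 0.042 by edgeR). Leaving out any of 12 of the 27 embryos ended that call (adjusted p up to 0.086), as did spike-in scaling and 1 fit over all bins (adjusted p up to 0.107). Nv.T1.26630.1 rose to 1.01 to 60.8 CPM at 36 to 48 h (median 10.8 CPM), against 0 to 8.36 CPM at 24 to 30 h (median 3.41 CPM; log2 fold change 2.03, SE 0.53, adjusted p = 0.015 by edgeR). Its call held without each of the 27 embryos in turn and was lost with spike-in scaling and in 1 fit over all bins (adjusted p up to 0.144).

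Nv.T1.30408.1 fell to 13.0 to 85.9 CPM at 36 to 48 h (median 25.9 CPM), against 23.4 to 152 CPM at 24 to 30 h (median 67.0 CPM; log2 fold change -1.09, SE 0.30, adjusted p = 0.020 by edgeR). Nv.T1.8648.3 fell to 21.4 to 109 CPM at 36 to 48 h (median 35.3 CPM), against 40.7 to 156 CPM at 24 to 30 h (median 89.7 CPM; log2 fold change -1.04, SE 0.27, adjusted p = 0.013 by edgeR). Both had nearly no counts at 0 to 6 h, 2 each over the 10 embryos, and both were present in all 18 embryos of 36 to 48 h. The calls of both were lost with spike-in scaling (adjusted p up to 0.081 by edgeR), without embryo 38 and without embryo 43. That of Nv.T1.8648.3 was also lost in 1 fit over all bins and without any of 7 other embryos.

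**Figure D5:**
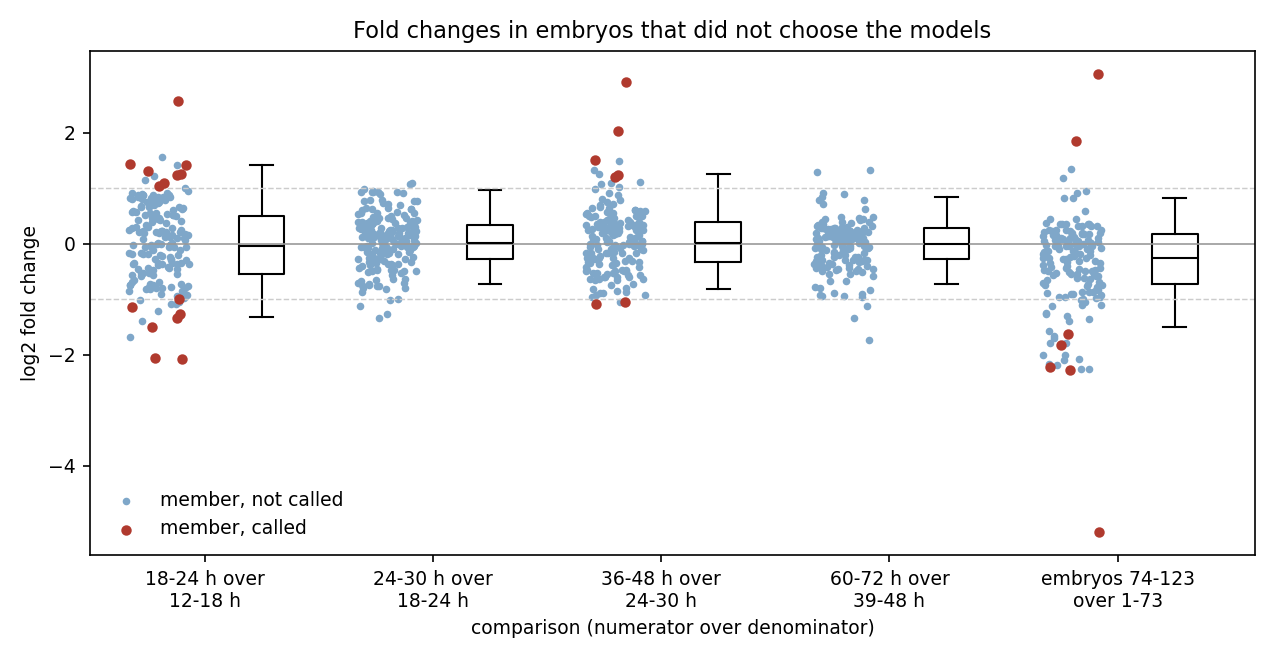
Log2 fold change of each of the 186 models that could be tested (points, called models in red) in the 5 comparisons, beside the same over all models tested (box at the quartiles, line at the median, whiskers from the 5th to the 95th percentile). Dashed lines mark a log2 fold change of 1 either way; 15, 0, 7, 0 and 7 points are called from left to right, and the lowest point, at -5.20, is Nv.T1.23817.1.

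In embryos 74 to 123 the models showed no called change between 60 to 72 h (19 embryos) and 39 to 48 h (12 embryos). None of the 153 tested was called, against 0.101% of the 10842 models tested that rose and 0.0461% that fell. There were 14 at an unadjusted p under 0.05, and DESeq2 called 1. The median log2 fold change was 0.05 over the 153 and 0.0011 over all tested, and 148 lay within 1 either way. The filter on low counts left out 33 of the 186 models here, against 4 in the comparison of 36 to 48 h with 24 to 30 h.

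Embryos 74 to 123 were compared with embryos 1 to 73 in 11 pairs of equal label time between 39 and 48 h, with label time as a block. Of 162 models tested 2 were higher and 5 lower in embryos 74 to 123, against 0.875% and 1.25% of the 11881 models tested. The median log2 fold change was -0.26 over the 162 and -0.25 over all tested. The comparison shares its embryos with those of 36 to 48 h and of 39 to 48 h above. Counts on models per spike-in count had a median of 14.6 at 39 to 48 h in embryos 74 to 123, against 4.14 at 36 to 42 h and 7.47 at 42 to 48 h in embryos 1 to 73. With spike-in scaling 46 of the 162 were higher and 1 lower, against 23.8% of all models tested that were higher and 0.227% that were lower, and the median log2 fold change was 0.82 over the 162 and 0.82 over all tested. The labels do not say what sets the embryo numbers apart, and nothing here separates a batch from a difference between the animals. Leaving out single pairs gave 3 calls (without the pair at 2400 min or at 2760 min) to 12 (without the pair at 2360 min or at 2680 min).

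Fewer of the 186 models were detected in embryos 74 to 123 at equal depth. Thinned to 200000 counts, 140 to 169 of them were expected at 39 to 48 h in embryos 74 to 123 (median 162), against 161 to 178 at 42 to 48 h in embryos 1 to 73 (median 176). Over all models it was a median of 15982 in embryos 74 to 123, against 17659.7 in embryos 1 to 73, so detection was lower across the table as well. In all, 5 libraries of embryos 74 to 123 were under 200000 counts and were left out of this count.

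Nv.T1.2850.1 had 32.9 to 119 CPM in embryos 74 to 123 (median 53.8 CPM), against 0 to 30.6 CPM in embryos 1 to 73 (median 3.79 CPM), higher in 11 of 11 pairs and with no overlap (log2 fold change 3.06, SE 0.59, adjusted p = 0.012 by edgeR). In embryos 1 to 73 its bin medians ran from 58.4 CPM at 12 to 18 h through 21.4 CPM at 18 to 24 h to 4.35 CPM at 42 to 48 h. In embryos 74 to 123 it stood at 52.9 CPM at 39 to 48 h, 36.8 CPM at 48 to 60 h and 11.2 CPM at 60 to 72 h. Nv.T1.11541.1 had 0 to 551 CPM in embryos 74 to 123 (median 202 CPM), against 20.7 to 123 CPM in embryos 1 to 73 (median 45.9 CPM), higher in 10 of 11 pairs (log2 fold change 1.85, SE 0.49, adjusted p = 0.049 by edgeR). That call held without 1 of the 11 pairs and was lost without any other (adjusted p up to 0.107).

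Nv.T1.23817.1 had 0 to 31.0 CPM in embryos 74 to 123 (median 0), against 1.92 to 105 CPM in embryos 1 to 73 (median 40.6 CPM), and was higher in 0 of 11 pairs (log2 fold change -5.20, SE 0.87, adjusted p = 0.0056 by edgeR). Its bin medians were 0 in all 3 bins of embryos 74 to 123, although single embryos reached 169 CPM at 48 to 60 h. The same unevenness was seen in embryos 1 to 73, where it ran from 0 to 173 CPM at 12 to 18 h. Nv.T1.63571.7581 had 0 to 24.1 CPM in embryos 74 to 123 (median 17.8 CPM), against 4.15 to 151 CPM in embryos 1 to 73 (median 69.7 CPM), higher in 2 of 11 pairs (log2 fold change -2.27, SE 0.55, adjusted p = 0.036 by edgeR). Leaving out a pair ended this call in 8 of 11 cases (adjusted p up to 0.089), and so did spike-in scaling (adjusted p = 0.147 by edgeR).

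The spread between embryos of a bin was wide for the models and close to that of others at like level. Among models with a mean of 10 to 100 CPM the coefficient of variation had a median of 60.4% over 139 of the 186 at 12 to 18 h, against 59.8% over all 9758 models in that range. At 18 to 24 h it was 41.8% over 128 models, against 38.1% over 10112. At 42 to 48 h it was 51.8% over 112 models, against 47.7% over 10939. Nv.T1.23817.1 was the most variable at 12 to 18 h, with 152%.

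Identifiers carry a stem and a model number, and models of 1 stem may share sequence, which the sources used here do not state. The 186 models fell on 153 stems, and 129 of them (69.4%) were the only model of their stem, against 71.1% of the models with a 6 to 12 h median of at least 10 CPM. Stem 63571, which covers 3153 models, held 24 of the 186 (12.9%), against 5.32% of the models with a 6 to 12 h median of at least 10 CPM and 7.79% of all models. Stem 12653, with 539 models, held 5. Outside these large stems 5 of 157 models (3.18%) had another model of their stem at 10 CPM or more at 0 to 6 h, against 14.9% of the 9948 models with a 6 to 12 h median of at least 10 CPM and 8.33% of the 48 models that were not sustained. Counts could be split between models of a stem, so levels of such models are uncertain. Nv.T1.63571.7581 and Nv.T1.63571.7583 were both among the 5 models lower in embryos 74 to 123 at equal label time. They share stem 63571, so these calls may not be independent. Nv.T1.63594.6 and Nv.T1.63594.7, singled out after their values were seen, had nearly the same medians, 12.9 and 12.2 CPM at 6 to 12 h, 127 and 116 CPM at 12 to 18 h and 391 and 393 CPM at 30 to 36 h, and their counts may not be independent.

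Values on either side of each threshold show how sharply the choice was drawn. Nv.T1.10519.2 was inside with a 0 to 6 h median of 1.97 CPM and Nv.T1.51695.1 outside with 2.01 CPM. For the 6 to 12 h median, Nv.T1.30206.1 was inside at 10.1 CPM and Nv.T1.7102.2 outside at 9.87 CPM. For the ratio of the 30 to 36 h median to the 6 to 12 h median, Nv.T1.6377.3 was inside at 0.502 and Nv.T1.24311.1 outside at 0.496. Without embryo 50 the rule also gave 186 models, 176 of them the same. On counts per spike-in count in place of CPM it gave 83 models, 33 of them among the 186. These values were rescaled by the same factor in all embryos, and the cut-offs of 2 and 10 were kept. Counts on models per spike-in count had a median of 2.47 at 0 to 6 h and 2.16 at 6 to 12 h, against 5.05 at 30 to 36 h. The same cut-offs thus stood for other levels in CPM, and 83 and 186 are not numbers at like thresholds. The membership holds for CPM, the share of a model in its library.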

How the data were processed

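The deposited values are raw counts, whole numbers for 40499 models, 92 ERCC spike-ins and several rows of unassigned counts in each embryo. Per the submitters' processing notes, CASAVA 1.8, Bowtie2 2.1.0 and HTSeq 0.5.4p3 were used. The genome build is not given in the sources used here. Per the labels' protocols a DSN step, which digests double-stranded DNA and so lowers abundant molecules, was part of the library preparation. Distinct molecules were not counted. Unassigned counts (a median of 10.1% without a feature and 37.0% unaligned) and spike-ins stayed out of library sizes.

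CPM were computed over the models in Python 3.11.15. Tests used edgeR 4.0.16 in R 4.3.3 (quasi-likelihood, TMM, filterByExpr), each fit on the embryos compared only and adjusted over all models tested. A standard error is the size of the log2 fold change over the root of the F statistic. Alternatives were RLE and spike-in scaling, DESeq2 1.42.0, no filter, a minimum of 200000 counts, fits over all bins, embryo 27 included, leaving out embryos 7, 28, 32, 54, 58, 92 and 96 together, and, added after seeing the data, leaving out each embryo or pair. Models named are the 2 highest at 6 to 12 h, for each comparison the 2 highest and 2 lowest log2 fold changes among those called (mean of at least 10 CPM in the higher group), the 2 earliest and latest onsets and those beside each threshold. The models, bins and tests were chosen with earlier results of these data known.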

Additional observations from a re-analysis of the deposited data

Results flagged for a closer look

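In 160 groups of embryos (the summed level, the number of models expected at 200000 counts and each named model, in the 8 bins of embryos 1 to 73) 12 values, in 11 embryos, lay far from the others of their bin by a gap test that flags about 5% of groups by chance. No explanation was tested for any of them. At 0 to 6 h Nv.T1.23817.1 had 1.99 CPM in embryo 9 (1 count) and Nv.T1.8648.3 had 1.23 CPM in embryo 5 (2 counts), each with 0 in the other 9 embryos. With 9 values of 0 the gap test flags any count, so these flags carry no information. The rate of about 5% does not hold for such groups. At 12 to 18 h 4 low values stood apart: Nv.T1.11541.1 had 12.5 CPM in embryo 25, Nv.T1.47187.1 had 0 in embryo 25, Nv.T1.18327.1 had 0 in embryo 20 and Nv.T1.8563.1 had 0 in embryo 21. Embryo 25 had 240961 counts, the fewest of that bin. At 18 to 24 h Nv.T1.32033.1 had 48.5 CPM in embryo 35, below the others, and Nv.T1.4587.1 had 240.2 CPM in embryo 30, above them. At 30 to 36 h Nv.T1.26630.1 had 0 in embryo 48 and Nv.T1.53217.1 had 3.85 CPM in embryo 53. At 36 to 42 h Nv.T1.29048.1 had 0 in embryo 64. At 42 to 48 h embryo 68 had the lowest number of models expected at 200000 counts, 160.5 of the 186, against a median of 176 in its bin, with 229707 counts.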

How the results depend on the processing

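Spike-in scaling called 46 models (25.4%) between 18 to 24 h and 12 to 18 h, against 21.7% of all models tested. Of the 46, 45 rose and 1 fell, against 8 and 7 with TMM. Spike-in scaling called 1 between 24 to 30 h and 18 to 24 h (1.05% of all tested). It called 0 between 36 to 48 h and 24 to 30 h (1.17% of all tested). Between the embryo numbers it called 47 (29.0%), against 24.1% of all tested. Of the 47, 46 were higher and 1 lower in embryos 74 to 123, against 2 and 5 with TMM. RLE size factors called 1 between 24 to 30 h and 18 to 24 h. DESeq2 called 3 there, 11 between 36 to 48 h and 24 to 30 h, 1 between 60 to 72 h and 39 to 48 h, and 26 between the embryo numbers (3 higher and 23 lower, of 162 tested; over all 11881 models 281 were higher and 1094 lower). Between the embryo numbers no filter gave 24 calls, 2 higher and 22 lower, of 186 tested (1.08% and 11.8%). Over all 33762 models tested without filter 147 were higher and 974 lower (0.435% and 2.88%). Between the embryo numbers a minimum of 200000 counts gave 12 calls of 165 tested (7.27%, against 1.94% of all tested). Without a block for label time it was 14 of 162 (8.64%, against 3.804% of all tested). In 1 fit over all bins 2 models were called between 36 to 48 h and 24 to 30 h (1.08%, against 4.30% of all tested). Between 18 to 24 h and 12 to 18 h 11 rose and 1 fell in that fit, against 10.4% and 3.71% of all tested. With embryo 27 included it was 12 and 2 (7.10% and 6.39% of all tested), and without filter 11 and 4 (4.46% and 2.70%). Without embryos 28 and 32 together it was 16 and 6 (7.36% and 7.00%). Leaving out single embryos gave 10 to 25 calls between 18 to 24 h and 12 to 18 h and 3 to 9 between 36 to 48 h and 24 to 30 h, and leaving out single pairs 3 to 12 between the embryo numbers. Embryos 37, 38, 40 and 42, each left out, left 4, 4, 3 and 4 calls between 36 to 48 h and 24 to 30 h. On counts per spike-in count the rule gave 83 models, with its cut-offs of 2 and 10 kept on that unlike scale. On counts per spike-in count the summed level at 24 to 30 h was 20.9 times that at 6 to 12 h, against 4.51 times in CPM. The cause was not tested for any of these. No direction of a named model turned: of 367 refits of 15 calls of named models, 283 kept the call and 84 lost it. The median onset was 6.67 to 8 h under the other definitions. Depth limits levels under about 3.59 CPM in an embryo of median depth.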
